A study of Mus musculus with 6 samples.

Results

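The nuclear genes for the subunits of the mitochondrial respiratory chain, for cytochrome c and for the ATP synthase were examined in mouse ES cells at the start of differentiation. The genes were chosen by symbol (Nduf, Sdh, Uqcr, Cycs, Cox and Atp5 series) from probe sets that carry a single gene symbol in the platform annotation. 168 such probe sets represented 82 genes out of 18193 named genes on the array, and where a gene had several the one with the brightest average signal was used. They comprise 35 genes of complex I, 4 of complex II, 8 of complex III, 17 of complex IV, 17 of complex V (ATP synthase) and the cytochrome c gene Cycs. The subunits that mitochondrial DNA encodes are outside this selection.

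Respiration passes electrons from NADH through complex I, and from succinate through complex II, to ubiquinone and then to complex III. Cytochrome c carries them on to complex IV, which reduces oxygen, and complexes I, III and IV pump protons whose return through complex V drives ATP synthesis. Naive mouse ES cells are known to use both respiration and glycolysis, whereas primed epiblast stem cells rely mainly on glycolysis.

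The arrays came from E14TG2a, a mouse ES line kept undifferentiated by leukaemia inhibitory factor (LIF). The 3 differentiating samples were cultured without LIF for 3 days and FACS-sorted for surface 5T4, and the 3 undifferentiated samples were cultured in 1000 units/ml LIF and sorted as lacking 5T4. Removal of LIF and the 5T4 sort therefore cannot be told apart, and all samples come from 1 cell line. The labels do not say that the numbered replicates were separate cultures, so the p-values describe the spread between these samples, which may be technical.

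Values are RMA expression values on the log2 scale, and a log2 fold change is the mean of the differentiating samples minus that of the undifferentiated samples. State markers were read as a check of the labels. All 15 naive pluripotency genes measured had a log2 fold change below 0 and 4 of them passed, and the list averaged 7.91 ± 1.01 in the differentiating samples and 10.44 ± 0.31 in the undifferentiated ones (SD, n = 3 each). Of 7 primed epiblast genes 6 had a log2 fold change above 0, and 2 of them, Fgf5 and Zic2, passed as higher. That list averaged 9.36 ± 0.28 in the differentiating samples and 8.31 ± 0.34 in the undifferentiated ones (SD, n = 3 each). With each of the 6 arrays left out in turn, Fgf5 passed 3 times and Zic2 1 time. The transcript of 5T4 itself, Tpbg, read 6.71, 7.52 and 7.97 in the differentiating samples and 5.94, 6.76 and 5.68 in the undifferentiated ones. Undifferentiated replicate 2 therefore overlapped the differentiating group for Tpbg.

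No respiratory chain or ATP synthase gene passed the test used, which was limma over 45037 probe sets with Benjamini-Hochberg adjustment and a threshold of 0.1. Of the 82 genes 0 were higher and 0 were lower, where 0.797% of all named genes passed as higher and 1.45% as lower. At an unadjusted p under 0.05, 0 were higher and 11 lower, against 7.6% and 9.6% of all genes. Of the 2097 genes with a mean RMA value of at least 10, 130 were higher and 278 lower at that limit. The 70 subunit genes in this brighter class had 0 higher and 10 lower, so the count is not read as an excess. The smallest adjusted p was 0.132. With 3 samples per group a two-sided exact permutation test of a single value cannot go below 0.1.

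The fold changes were small. The median log2 fold change was -0.15, a level 10.0% lower in the differentiating cells (0.900-fold), against a median of 0.02 over all genes and of -0.05 over the 2097 genes with a mean RMA value of at least 10, a class that holds 70 of the 82. The changes of 77 genes lay within 0.5 of 0. The 95% interval lay within 1 log2 unit of 0 for 79 genes and within 0.5 for 41. The median standard error was 0.133, against 0.160 over all genes.

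The direction was lopsided. 70 of the 82 genes (85.4%) had a log2 fold change below 0, against 46.4% of all genes and 58.9% of those with a mean RMA value of at least 10. In 23 genes every differentiating sample lay below every undifferentiated one, and in 0 genes every one lay above. Over all genes such separation was found in 12.8% as lower and 10.7% as higher, and over the brighter class in 21.1% and 9.01%. The genes share arrays and a normalization and are not independent replicates.

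**Figure D1:**
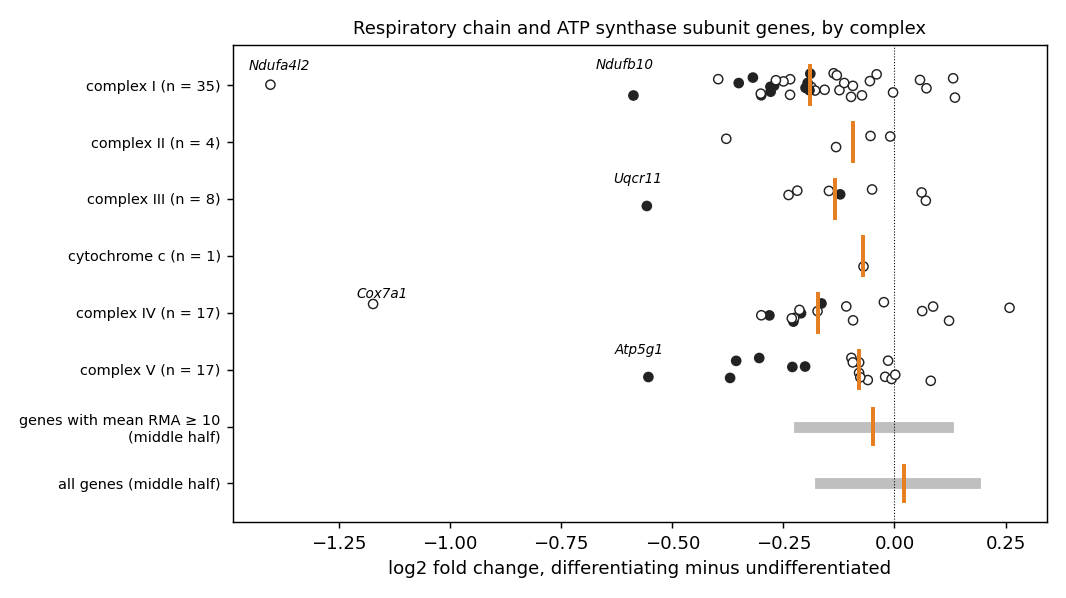
Log2 fold change (differentiating minus undifferentiated, x axis) of each subunit gene, by complex. Filled points are genes whose differentiating samples all lie below the undifferentiated samples, open points overlap, orange bars are medians, and grey bars give the interquartile range of the brighter genes and of all genes. Most points lie between -0.5 and 0, with Ndufa4l2 at -1.40 and Cox7a1 at -1.17 apart from the rest.

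The size of the difference depended on undifferentiated replicates 1 and 2, which moved it in opposite directions. Averaged over the 82 genes, the RMA values were 10.92, 10.89 and 10.87 in differentiating replicates 1, 2 and 3, against 11.26, 10.92 and 11.04 in undifferentiated replicates 1, 2 and 3. Undifferentiated replicate 1 was the highest of the 6 arrays for 62 of the 82 genes (75.6%), where it was highest for 26.7% of all genes and 31.1% of the brighter ones. Undifferentiated replicate 2 was the lowest of its group in 65 and averaged the same as differentiating replicate 1.

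Set against each undifferentiated array on its own, the mean of the differentiating samples had a median difference of -0.31 from replicate 1, with 75 genes below 0. From replicate 2 the median difference was -0.03, with 46 genes below 0, and from replicate 3 it was -0.11, with 62 below 0. Over the brighter class the median differences from replicates 1, 2 and 3 were -0.05, -0.04 and -0.08. Leaving out undifferentiated replicate 1 brought the median log2 fold change of the subunit genes to -0.08 with 59 genes below 0, and leaving out undifferentiated replicate 2 brought it to -0.22 with 72 below 0. The standard deviation had a median of 0.08 in the differentiating group and 0.18 in the undifferentiated group, and it was larger in the undifferentiated group for 58 genes. Over the brighter class the medians were 0.12 and 0.17, and it was larger in the undifferentiated group for 1414 of 2097 genes. The greater spread is therefore not particular to the subunit genes.

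The same order of the undifferentiated arrays was seen in each of the 5 complexes. Complex I averaged 10.71, 10.70 and 10.68 in the differentiating samples and 11.13, 10.70 and 10.88 in the undifferentiated ones. Complex III averaged 11.67, 11.63 and 11.58 in the differentiating samples, against 11.91, 11.66 and 11.76 in the undifferentiated ones. Complex V averaged 12.04, 12.05 and 12.04 in the differentiating samples and 12.31, 12.10 and 12.16 in the undifferentiated ones, and here all differentiating arrays lay below. Complex II ranged from 11.03 to 11.12 in the differentiating samples and from 11.01 to 11.44 in the undifferentiated ones, and complex IV from 9.62 to 9.78 in the differentiating samples and from 9.71 to 10.05 in the undifferentiated ones.

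**Figure D2:**
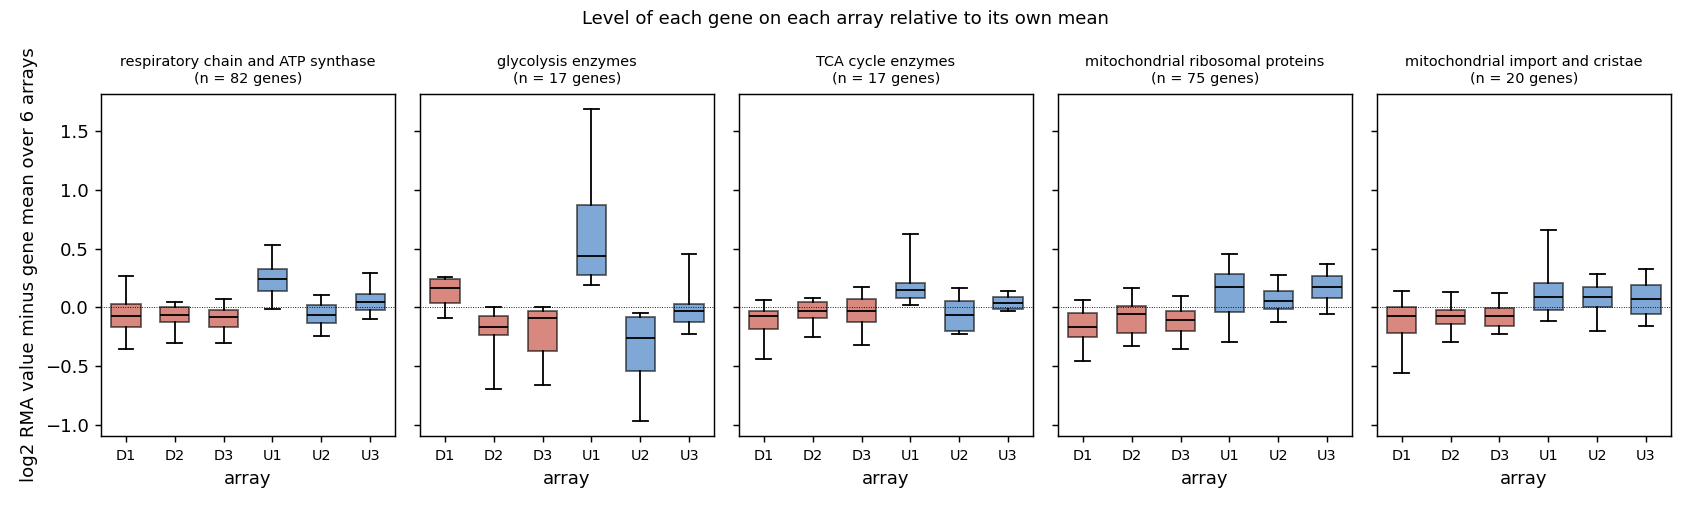
RMA value of each gene on each array minus that gene's mean over the 6 arrays (log2, y axis), for the 82 subunit genes and 4 other lists. D1 to D3 are the differentiating samples and U1 to U3 the undifferentiated ones, boxes give the interquartile range with the median, and whiskers run from the 5th to the 95th percentile. U1 stands above the other arrays in the subunit, glycolysis and TCA cycle panels, whereas in the mitochondrial ribosome and import panels the medians of U1, U2 and U3 all lie above those of D1, D2 and D3.

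Complex I, the NADH dehydrogenase, had a median log2 fold change of -0.19 over 35 genes, with 31 below 0 and 11 separated as lower. The 11 are 31.4%, against 21.1% of the brighter class. Ndufb10, an accessory subunit of the membrane arm, had the smallest adjusted p of all 82 genes. It read 9.81, 9.81 and 10.00 in the differentiating samples and 10.64, 10.28 and 10.46 in the undifferentiated ones. The groups did not overlap, and the log2 fold change was -0.59 ± 0.14 (SE, 95% interval -0.91 to -0.27, adjusted p = 0.132 from limma). It passed without undifferentiated replicate 2 (adjusted p = 0.0997), and over the arrays left out in turn its adjusted p ranged up to 0.441.

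Ndufv1, which holds the flavin that accepts electrons from NADH, read 11.12, 11.17 and 11.11 in the differentiating samples, against 11.51, 11.27 and 11.56 in the undifferentiated samples (log2 fold change -0.32, adjusted p = 0.315). Ndufb2, a further accessory subunit, read 10.54, 10.56 and 10.57 in the differentiating samples, against 10.87, 10.77 and 10.86 in the undifferentiated ones (-0.28, adjusted p = 0.296). Both genes were separated as lower, as was Ndufs1, the large iron-sulphur subunit of the NADH-oxidising arm, at -0.30. The other core subunits measured had overlapping groups, with Ndufs7 at -0.30, Ndufv2 at -0.13, Ndufs3 at -0.12 and Ndufs8 at -0.07.

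The values above 0 in complex I were small. Ndufs4, an accessory subunit whose loss causes a Leigh-like disease in mice, read 10.59, 10.81 and 10.79 in the differentiating samples and 10.63, 10.55 and 10.61 in the undifferentiated ones, a log2 fold change of 0.14 with overlapping groups. Its 4 probe sets ranged from -0.28 to 0.14, so its sign depended on the probe set. Ndufb4 (0.13), Ndufc2 (0.07) and Ndufb1 (0.06) were the other 3 genes above 0, all with overlapping groups. The Ndufb4 value has little weight, since its probe set was dim, with a lowest value of 3.52 and a highest of 4.29. A pair of bright probe sets, left out because each carries the symbols Ndufb4, Ndufb4b and Ndufb4c together, had the opposite sign, at -0.51 and -0.52, and both were separated as lower (adjusted p = 0.224 each).

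Complex II, which is the succinate dehydrogenase shared with the TCA cycle, had 4 genes and a median of -0.09. Sdhc, a membrane anchor, read 9.99, 10.26 and 10.33 in the differentiating samples, against 10.97, 10.28 and 10.46 in the undifferentiated ones. The difference of -0.38 (95% interval -0.86 to 0.10, adjusted p = 0.483 from limma) became -0.18 without undifferentiated replicate 1, a move of over 1.5 times. Sdhb, the iron-sulphur subunit, was at -0.13, the flavoprotein Sdha at -0.05 and the anchor Sdhd at -0.01. None of the 4 was separated.

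Complex III, the cytochrome bc1 complex, had a median of -0.13 over 8 genes. Uqcr11, its smallest accessory subunit, read 10.25, 10.46 and 10.43 in the differentiating samples and 11.13, 10.75 and 10.93 in the undifferentiated samples. Every differentiating sample lay below every undifferentiated one, at a log2 fold change of -0.56 ± 0.14 (SE, 95% interval -0.89 to -0.23, adjusted p = 0.155). Uqcrq, another accessory subunit, was also separated as lower, but only by -0.12. The core proteins Uqcrc1 and Uqcrc2 stood at -0.24 and 0.06, and the Rieske iron-sulphur protein Uqcrfs1 stood highest at 0.07, all with overlap.

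Cycs, the gene of cytochrome c, a mobile carrier that also takes part in apoptosis, read 12.14, 12.48 and 12.67 in the differentiating samples and 12.48, 12.55 and 12.46 in the undifferentiated samples (log2 fold change -0.07, 95% interval -0.44 to 0.30). Here the differentiating samples were the more spread, and replicate 1 was the lowest array. Without differentiating replicate 1 the value was 0.07. Cyct, the testis isoform of cytochrome c, which the symbol rule did not take, read 7.72, 7.47 and 7.33 in the differentiating samples, against 9.18, 8.01 and 8.40 in the undifferentiated ones (-1.02, adjusted p = 0.200), with no overlap, and it passed without undifferentiated replicate 2 (adjusted p = 0.0870).

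Complex IV, cytochrome c oxidase, had a median of -0.17 over 17 genes, with 13 below 0. It had 4 separated as lower (23.5%, against 21.1% of the brighter class), so that count is not read as an excess. Cox4i1, the ubiquitous form of its regulatory subunit IV, read 12.66, 12.81 and 12.71 in the differentiating samples and 13.20, 12.91 and 12.91 in the undifferentiated ones (-0.28, adjusted p = 0.405). The other 3 separated genes were Cox5a (-0.23), Cox6a1 (-0.21) and Cox6c (-0.16). In each of the 4 the undifferentiated replicate 1 was the highest array, and without it Cox4i1 stood at -0.18 and Cox6a1 at -0.14.

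The 2 genes with the largest standard errors of the 82 were Cox7a1 and Ndufa4l2. Cox7a1, the heart and skeletal muscle form of subunit VIIa, read 7.31, 6.72 and 6.49 in the differentiating samples, against 8.97, 7.17 and 7.90 in the undifferentiated samples. Differentiating replicate 1 overlapped undifferentiated replicate 2, and the log2 fold change was -1.17 ± 0.45 (SE, 95% interval -2.24 to -0.11, adjusted p = 0.319). It became -0.69 without undifferentiated replicate 1.

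Ndufa4l2, a relative of Ndufa4 known as a target of the hypoxia-inducible factor, had the largest fold change of the 82 genes and the widest interval. It read 7.81, 6.33 and 6.25 in the differentiating samples and 10.10, 6.66 and 7.84 in the undifferentiated ones. The log2 fold change was -1.40 ± 0.86 (SE, 95% interval -3.45 to 0.64, adjusted p = 0.545), and it became -0.45 without undifferentiated replicate 1. That array held the highest value of both groups, and differentiating replicate 1 the highest of its own.

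Complex V, the ATP synthase, had a median of -0.08 over 17 genes, with 15 below 0. Of these 17 genes 6 (35.3%) were separated as lower, against 21.1% of the brighter class. The genes of the catalytic head and central stalk had values near 0. The beta subunit gene Atp5b read 13.25, 13.26 and 13.25 in the differentiating samples, against 13.45, 13.25 and 13.35 in the undifferentiated ones. The alpha, gamma and delta subunit genes Atp5a1, Atp5c1 and Atp5d had log2 fold changes of -0.08, 0.00 and -0.02. The dimmer probe set of Atp5d was separated as lower at -0.15. Atp5e, for the small epsilon subunit of the central stalk, was separated as lower at -0.20.

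The other separated genes of complex V belong to the peripheral stalk and the membrane part. Atp5j, which encodes coupling factor 6 of the peripheral stalk, read 11.52, 11.67 and 11.60 in the differentiating samples and 12.14, 11.80 and 11.91 in the undifferentiated ones (-0.36, adjusted p = 0.296). Atp5j2, the f subunit, was at -0.37, Atp5l, the g subunit, at -0.30, and Atp5o, which encodes the oligomycin sensitivity conferring protein, at -0.23. The peripheral stalk also holds Atp5h and Atp5pb, which overlapped between groups at -0.09 and -0.08. Atp5k, Atp5md and Atp5mpl of the membrane part overlapped too, at -0.06, -0.08 and -0.01, so not every gene of these parts was separated. A dimmer probe set of Atp5k was separated as lower at -0.33.

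The c subunit, which forms the rotor ring of the ATP synthase, is encoded by 3 genes that give the same mature protein and differ in the import sequence. Atp5g1 read 11.41, 11.15 and 11.07 in the differentiating samples, against 11.76, 11.67 and 11.87 in the undifferentiated samples. The groups did not overlap, and the log2 fold change was -0.55 ± 0.13 (SE, 95% interval -0.87 to -0.24, adjusted p = 0.144). A second Atp5g1 probe set was dim, with values of 3.15 to 3.45 in the differentiating samples and 3.55 to 3.80 in the undifferentiated ones, and adds nothing to this value. In contrast to most of the 82 genes, Atp5g1 was highest in undifferentiated replicate 3.

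Atp5g2 read 12.39, 12.42 and 12.31 in the differentiating samples and 12.41, 12.15 and 12.31 in the undifferentiated ones, a log2 fold change of 0.08 (95% interval -0.20 to 0.36). Atp5g3 read 12.93, 12.96 and 12.93 in the differentiating samples, against 12.94, 12.96 and 12.93 in the undifferentiated ones, a log2 fold change of -0.01 (95% interval -0.24 to 0.23). The intervals of Atp5g1 and Atp5g3 meet over only a narrow range, but the difference between the genes was not tested. Atp5g1 passed without differentiating replicate 1 (adjusted p = 0.0877) and reached an adjusted p of up to 0.463 with another array left out.

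**Figure D3:**
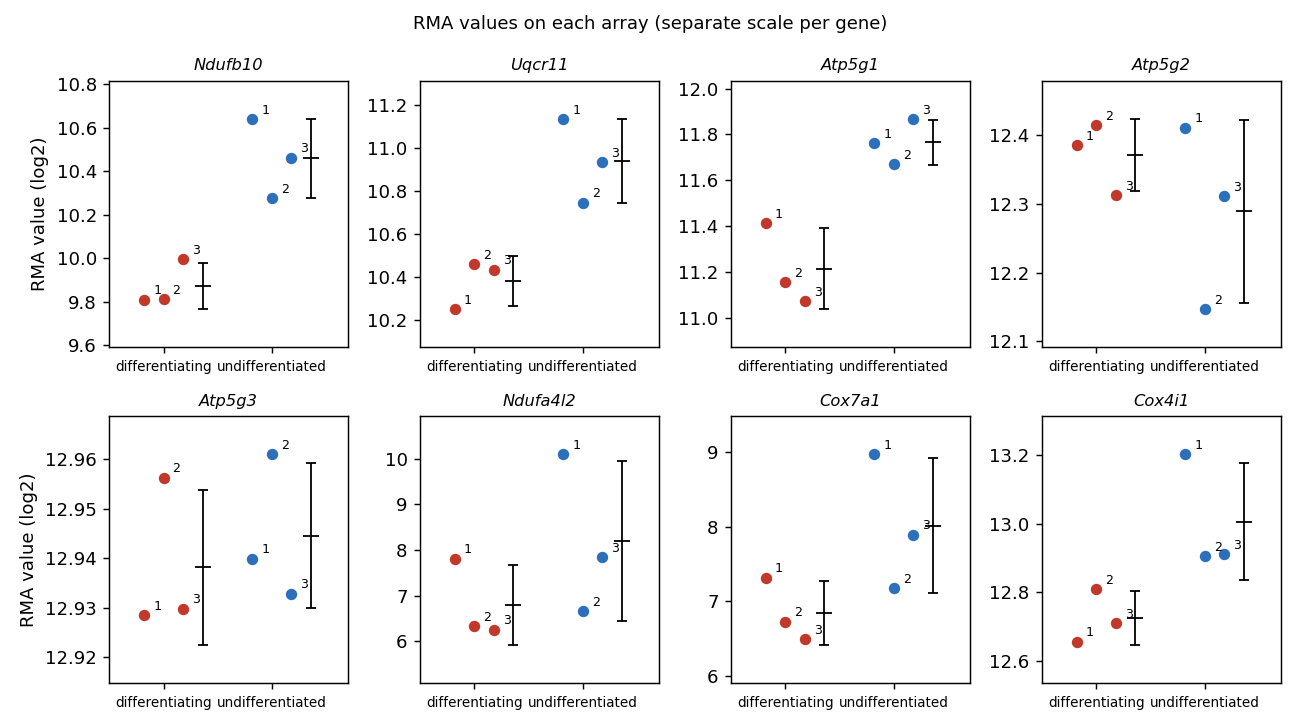
RMA values (log2) of 8 subunit genes, each on its own y axis, on each array, with the replicate number beside each point and the mean ± SD (n = 3) to the right of each group. Ndufb10, Uqcr11, Atp5g1 and Cox4i1 show no overlap between the groups, Atp5g2 and Atp5g3 overlap, and undifferentiated replicate 1 is highest for Ndufa4l2 (10.10) and Cox7a1 (8.97).

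Set side by side, the alternative forms of complex IV subunits gave no case in which one form passed in either direction. Cox4i1 and the lung and hypoxia form Cox4i2 were at -0.28 and -0.23. Cox6a1 and the muscle form Cox6a2 were at -0.21 and 0.06, and Cox6b1 and the testis form Cox6b2 at -0.02 and -0.30. Cox7a2, the common form of subunit VIIa, was at -0.17, with the muscle form Cox7a1 at -1.17 and the supercomplex assembly factor Cox7a2l at 0.12. Cox8a, the muscle form Cox8b and the testis form Cox8c were at -0.23, -0.11 and 0.26. Cox4i2 averaged 4.85 in the differentiating and 5.07 in the undifferentiated samples, and Cox8b 4.88 and 4.99. These means lie below the median of every array, so the values of these dim probe sets have little weight. Ndufa4, now counted with complex IV in biochemical work, was separated as lower at -0.27. None of these passed, and many moved by over 1.5 times with 1 array left out. Without undifferentiated replicate 1, Cox4i2 was at -0.13, Cox6b2 at 0.00, Cox7a2 at -0.11, Cox7a2l at 0.30, Cox8a at -0.11 and Ndufa4 at -0.18, and without differentiating replicate 1 Cox8c was at 0.10.

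**Figure D4:**
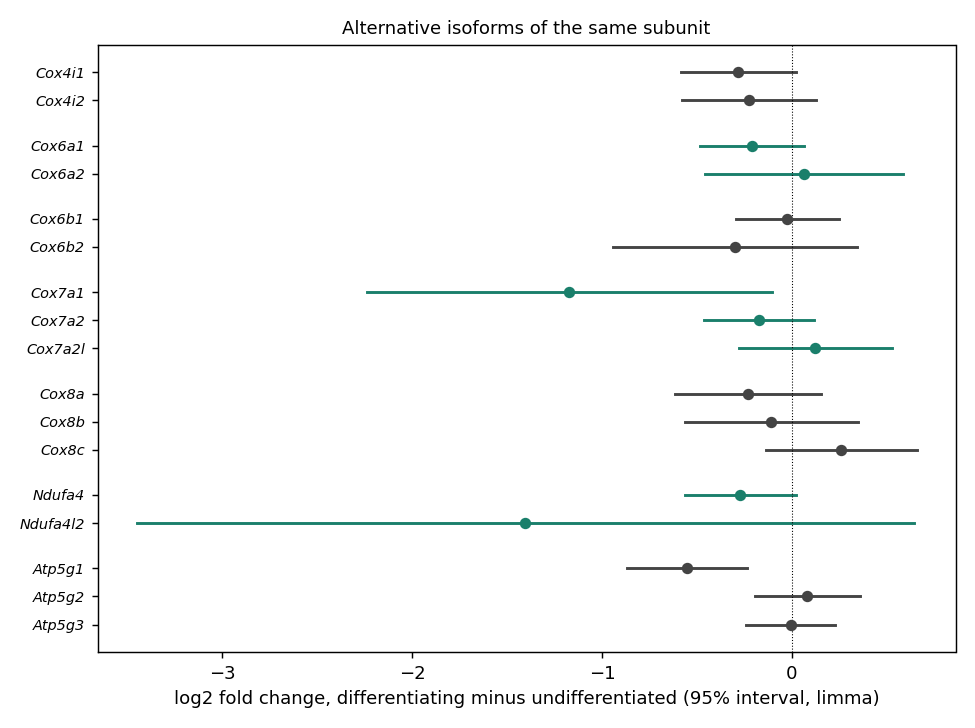
Log2 fold change (differentiating minus undifferentiated, x axis) with its 95% interval from limma for the alternative forms of 7 subunits, 1 row per gene. Only the intervals of Cox7a1 (-2.24 to -0.11) and Atp5g1 (-0.87 to -0.24) lie wholly below 0, and that of Ndufa4l2 is the widest. The probe sets of Cox4i2 and Cox8b were dim.

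Promoter sequence is shown for the 3 c subunit genes, whose log2 fold changes were -0.55, 0.08 and -0.01, and for Ndufb10 and Uqcr11, the genes of smallest adjusted p outside complex V. Each run is the 250 bases before the RefSeq start of the gene, 5′ to 3′ on the gene's strand (the minus strand in all 5), in build GRCm38.p6. Capitals mark matches, on either strand, to 5 short motifs named for factors that act on genes of respiration or hypoxia. These are the palindrome of nuclear respiratory factor 1 (NRF1), which is GCGC, any 2 bases and GCGC again, the ETS motif CCGGAAG bound by GABP, the YY1 motif AAGATGGC, the estrogen-related receptor (ERR) motif AAGGTCA, and the core ACGTG of the hypoxia response element, whose letters also lie in the E-box CACGTG, where both strands match. The runs lie at chr11:96075632-96075881, chr15:102671048-102671297, chr2:73911327-73911576, chr17:24724424-24724673 and chr10:80406822-80407071, in the order printed.
Atp5g1: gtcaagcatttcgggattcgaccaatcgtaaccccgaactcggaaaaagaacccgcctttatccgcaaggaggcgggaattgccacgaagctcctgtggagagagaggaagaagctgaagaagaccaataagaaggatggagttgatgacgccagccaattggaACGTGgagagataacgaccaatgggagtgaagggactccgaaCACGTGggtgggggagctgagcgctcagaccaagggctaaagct
Atp5g2: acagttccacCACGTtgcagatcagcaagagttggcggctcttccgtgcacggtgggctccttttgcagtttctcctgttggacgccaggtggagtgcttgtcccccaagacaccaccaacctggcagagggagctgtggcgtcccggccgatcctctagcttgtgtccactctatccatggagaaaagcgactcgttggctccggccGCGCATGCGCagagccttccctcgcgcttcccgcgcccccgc
Atp5g3: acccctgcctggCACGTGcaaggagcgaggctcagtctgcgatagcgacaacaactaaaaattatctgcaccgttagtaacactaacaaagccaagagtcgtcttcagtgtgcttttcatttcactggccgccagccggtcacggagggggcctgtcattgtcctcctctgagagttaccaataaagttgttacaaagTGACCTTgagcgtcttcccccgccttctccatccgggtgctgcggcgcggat
Ndufb10: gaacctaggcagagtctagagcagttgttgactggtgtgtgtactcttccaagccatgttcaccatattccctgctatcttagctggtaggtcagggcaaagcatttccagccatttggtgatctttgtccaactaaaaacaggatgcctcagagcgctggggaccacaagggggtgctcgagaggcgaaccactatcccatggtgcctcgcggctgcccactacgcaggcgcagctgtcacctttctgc
Uqcr11: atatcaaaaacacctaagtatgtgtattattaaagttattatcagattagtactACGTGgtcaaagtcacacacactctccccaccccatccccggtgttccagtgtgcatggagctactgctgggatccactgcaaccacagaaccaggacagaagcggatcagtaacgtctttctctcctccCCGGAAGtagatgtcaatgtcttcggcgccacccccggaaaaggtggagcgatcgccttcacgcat

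The 3 c subunit promoters held different matches. Atp5g1 had ACGTG starting 86 bases before the start and an E-box 44 bases before it. Atp5g2 had the NRF1 palindrome 42 bases before its start and an ACGTG at 240, and Atp5g3 had an ERR motif at 52 and an E-box at 238. Uqcr11 had an ETS motif at 66 and an ACGTG at 196, and Ndufb10 had none of the 5. A match is only a match of letters.

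Such windows were given for 67 of the 82 genes. The NRF1 palindrome was present in 12 of them (17.9%), against 5.64% of 27025 genes, and the ETS motif in 12 (17.9%), against 7.83%. ACGTG was present in 16 (23.9%), against 18.5%, the ERR motif in 5 (7.46%), against 4.70%, and the YY1 motif in 1 (1.49%), against 1.83%. No test was made of these shares.

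Genes that serve the complexes without being part of them were read from fixed lists. Of 14 assembly factors of complex I, 14 of complexes II, III and V and 23 of complex IV, 0 passed in either direction. The medians were -0.17, -0.20 and -0.23. In these lists 5, 2 and 10 genes were separated as lower and 1, 0 and 2 as higher, against 12.8% and 10.7% of all genes. Pet100, which takes part in building complex IV, had the smallest adjusted p of these at 0.116 (log2 fold change -0.62), and the complex I assembly factors Ndufaf2 (-0.62) and Ecsit (-0.70) were also separated as lower. The complex IV copper chaperone Sco2 (0.32), the complex IV assembly factor Coa3 (0.25) and the complex I iron-sulphur assembly factor Nubpl (0.24) were separated as higher, and none of these passed.

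Of 23 regulators of mitochondrial genes 0 passed. The largest log2 fold change was that of Esrrb, an orphan receptor of naive ES cells, with 8.81, 7.25 and 5.45 in the differentiating samples and 11.25, 9.99 and 10.93 in the undifferentiated ones (-3.55, adjusted p = 0.123). Esrrb also belongs to the naive pluripotency list. Stat3, the transducer of the LIF signal, was at -1.22 (adjusted p = 0.127). Both passed as lower without differentiating replicate 1, Esrrb with an adjusted p of 0.0626 and Stat3 with 0.0480. Tfam, which packages mitochondrial DNA, was at -0.17, Nrf1 at -0.10, the GABP subunit Gabpa at -0.39, the coactivator Ppargc1a at 0.17 and the mitochondrial DNA polymerase Polg at 0.96, none of them past the threshold.

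The mitochondrial ribosomal proteins, which make the subunits encoded in mitochondrial DNA, differed in how the arrays fell. Of 75 genes 2 were lower and 0 higher, with a median of -0.25 and 61 below 0. They had 36 separated as lower (48%, against 21.1% of the brighter class). Their array means were 9.99, 10.08 and 10.05 in the differentiating samples, against 10.29, 10.22 and 10.33 in the undifferentiated ones. Mrps12 (-0.70, adjusted p = 0.0819) and Mrpl4 (-0.72, adjusted p = 0.095) fell. The 20 import and cristae genes, 0 of which passed, averaged 10.42, 10.48 and 10.49 in the differentiating samples, against 10.68, 10.63 and 10.62 in the undifferentiated ones. In both lists every differentiating array mean lay below every undifferentiated one.

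In the glycolysis and TCA cycle genes the undifferentiated arrays fell in the same order as in the subunit genes, with replicate 1 highest and replicate 2 lowest, whereas the order of the differentiating arrays was not shared by all 3 lists. The 17 glycolysis genes averaged 11.26, 10.90 and 10.85 in the differentiating samples and 11.80, 10.77 and 11.16 in the undifferentiated ones, and undifferentiated replicate 1 was highest for 14 of them. The 17 TCA cycle genes averaged 10.48, 10.53 and 10.54 in the differentiating samples, against 10.81, 10.53 and 10.63 in the undifferentiated ones. None passed in either list, and the medians were -0.18 and -0.10. The largest change was that of Pfkp, the platelet form of phosphofructokinase, at -1.82 (adjusted p = 0.261).

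Single genes of mitochondrial transport and oxidant defence did fall. Sod2, the manganese superoxide dismutase of the matrix, read 10.26, 10.25 and 10.15 in the differentiating samples and 11.84, 11.30 and 11.53 in the undifferentiated ones (log2 fold change -1.33, adjusted p = 0.0428). Mpc1, a subunit of the mitochondrial pyruvate carrier, read 7.78, 7.15 and 7.55 in the differentiating samples, against 9.61, 8.81 and 9.16 in the undifferentiated ones (-1.70, adjusted p = 0.0589). Slc25a12, an aspartate-glutamate carrier, read 7.89, 6.97 and 6.70 in the differentiating samples, against 8.86, 9.05 and 9.02 in the undifferentiated ones (-1.79, adjusted p = 0.0736). They were 1 of 9 oxidant defence genes and 2 of 13 carrier genes, with 0 higher in either list. These 3 calls, and those of Mrps12 and Mrpl4, were each lost when replicate 2 or 3 of the differentiating group, or replicate 3 of the undifferentiated group, was left out, with adjusted p-values between 0.206 and 0.353. Mrpl4 was lost too without replicate 1 of the differentiating (0.137) or the undifferentiated group (0.131), and Mrps12 without undifferentiated replicate 1 (0.109). With the mean of all probe sets of a gene Slc25a12 was at -0.70 and did not pass (adjusted p = 0.125).

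Markers of other cell types moved with the groups in part. The median log2 fold change was 0.13 for 10 muscle, 0.12 for 10 endoderm and 0.21 for 10 fibroblast markers. In that order 7, 8 and 7 genes lay within 0.5 of 0, and 2, 2 and 3 lay below 0. The median RMA values of the lists were 5.95, 5.43 and 5.96, against 5.59 over all probe sets. The mean of 10 muscle markers was 6.33 to 6.53 in the differentiating samples and 5.43 to 6.36 in the undifferentiated ones, with undifferentiated replicate 2 at 6.36. Its cardiac actin gene Actc1 read 9.29, 8.78 and 9.21 in the differentiating samples and 5.39, 8.56 and 6.19 in the undifferentiated ones. The means of 10 endoderm markers were 5.59 to 6.01 in the differentiating samples and 5.28 to 5.53 in the undifferentiated ones, and those of 10 fibroblast markers were 5.93 to 6.39 in the differentiating samples and 5.65 to 5.99 in the undifferentiated ones. None of these 3 lists had a gene that passed, but Actc1 (adjusted p = 0.0200), the troponin gene Tnnc1 (0.0251) and the endoderm gene Dab2 (0.0241) passed as higher without undifferentiated replicate 2, and the endoderm gene Cubn (0.0309) and the fibroblast gene Dcn (0.0719) without differentiating replicate 1. Of 11 sorting and dissociation stress genes 1, Hspb1, fell (-0.91, adjusted p = 0.0968, a call kept only without differentiating replicate 1 among the arrays left out), and the list averaged 8.13 to 8.35 in the differentiating samples and 8.04 to 8.71 in the undifferentiated ones. The part of these genes, and of undifferentiated replicates 1 and 2, in the lower values of the subunit genes was not tested. In bulk samples fewer cells of a type and less RNA per cell cannot be told apart.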

How the data were processed

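RNA of 3 differentiating and 3 undifferentiated E14TG2a samples was hybridised to Affymetrix mouse arrays. The authors deposited log2 values made with RMA (background correction, normalization between arrays and summary per probe set) in the affy library (version: not given in the sources used here). No depth applies to arrays, and their number limits the precision. Array medians lay between 5.54 and 5.65, the highest being that of differentiating replicate 1. Its lower quartile was 4.26, against 4.07 to 4.10 on the other arrays, and its upper quartile 7.63, against 7.77 to 7.80.

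Probe sets were named from the platform annotation. Of 45101, 64 controls were left out, and 34945 had 1 symbol, 932 several and 9160 none. Only those with 1 symbol were named. All 82 gene IDs were found in RefSeq (GRCm38.p6) under the same symbol. A further 7 probe sets name a subunit together with another gene and were left unnamed; 0 of them passed (adjusted p from 0.224 to 0.952). Of the 49 subunit genes with several probe sets, 36 had the same sign at all of them, and 0 of the 86 dimmer probe sets passed.

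The groups were compared with limma 3.58.1 under R 4.3.3, by lmFit and then eBayes (2.93 prior degrees of freedom), on all 45037 probe sets, with no block, and with Benjamini-Hochberg adjustment; a gene passed at an adjusted p under 0.1. This is the false discovery threshold of the study's methods, which also asked for a log2 fold change of at least 1. That second limit was not applied to single genes. Among the genes named as passing in the analysis reported, with all 6 arrays, Mrps12, Mrpl4, Hspb1 and Zic2 do not meet it. Some genes named as passing only in other settings, such as Ndufb10 and Atp5g1, do not meet it either. The steps were tested on simulated data drawn for this comparison, in which 200 of the 45037 probe sets had a known change. They recovered 82% at a log2 change of 1.5, 87.5% at 2 and 95.5% at 3, with 16, 24 and 17 false calls. Changes smaller than 1.5 were not simulated, and the log2 fold changes of the 82 subunit genes ran from -1.40 to 0.26. The recovery therefore cannot say how often changes of the size seen in the subunit genes would pass.

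The 82 genes and the gene lists were chosen with earlier results of these data known. Subunit genes picked by rule were the 6 of smallest p, the extremes of each complex and the alternative forms. From each other list the rule took the passing genes (at most 4) or the 2 of smallest p. Not all genes so picked are given by sample here, and some are not named. Other genes were named after their values were seen. Lists are described by counts and medians, without a set test. Alternatives were a replicate block, a second quantile normalization, median centring, dim probe sets left out, controls kept, a trended robust prior, array weights, the mean of all probe sets of a gene, other thresholds, and each array left out in turn. Promoter windows came from RefSeq, and only the bases before the start were searched.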

Additional observations from a re-analysis of the deposited data

How the results depend on the processing

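The count of subunit genes that passed as lower was 0 in the analysis reported and 5 with array weights (Ndufb10, Atp5g1, Uqcr11, Ndufb2 and Cox7a1), 2 with the mean of all probe sets of a gene (Ndufb10, which has 1, and Atp5g1, whose second is dim), and 0 to 1 with each array left out in turn. The 1 was Atp5g1 without differentiating replicate 1 and Ndufb10 without undifferentiated replicate 2. Without both arrays numbered 1, chosen after seeing the data, it was 1 (Atp5g1, adjusted p = 0.0562). No setting gave a gene that passed as higher. The median log2 fold change stayed below 0 in all settings, from -0.22 without undifferentiated replicate 2 to -0.06 without both arrays numbered 1, and 59 to 73 genes lay below 0. It was -0.09 with array weights and -0.12 after a second quantile normalization. The brighter class had a median of -0.05 in the analysis reported, with 58.9% of its genes below 0. Its values in the other settings are not given here, so the medians nearest 0 are not read as a difference from that class.

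Among the genes named, the direction turned for some subunit genes and for Cyc1, none of which passed in any of these settings. After a second quantile normalization Sdhd was at 0.055 and Atp5g3 at 0.032. With array weights Sdhd was at 0.093, Cox6a2 at -0.027, Cox6b1 at 0.030, Cox6b2 at 0.0037, Atp5g3 at 0.0064 and the cytochrome c1 gene Cyc1 at 0.010. With the mean of all probe sets Ndufs4 was at -0.069. Without both arrays numbered 1, Cycs was at 0.066, Sdhd at 0.11, Cox6b1 at 0.075 and Cyc1 at 0.037, and without both arrays numbered 2 Atp5g2 was at -0.012. With each array left out in turn the ranges that crossed 0 were -0.19 to 0.075 for Cycs, -0.12 to 0.24 for Cox6a2, -0.068 to 0.041 for Cox6b1, -0.29 to 0.015 for Cox8b, -0.087 to 0.12 for Sdhd, -0.50 to 0.0025 for Cox6b2 and -0.015 to 0.0018 for Atp5g3. The cause was not tested.

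The correlations of same-numbered deviations were 0.21, -0.11 and 0.11, and those of differently numbered ones ranged from -0.31 to 0.32. With 3 samples per group these values cannot settle whether the replicate numbers pair the samples. With the replicate block 0 genes were higher and 0 lower and the median was -0.15, so the block changed no call of a subunit gene, though Mrps12 (adjusted p = 0.120), Mrpl4 (0.154) and Hspb1 (0.115) lost theirs, Fgf5 of the primed epiblast list reached 0.101, and Stat3 passed (0.0838). The 4 naive pluripotency calls (Tbx3, Klf4, Tfcp2l1 and Prdm14) were lost without replicate 2 or 3 of the differentiating group or replicate 3 of the undifferentiated group, with adjusted p-values from 0.158 to 0.366, and Prdm14 also without undifferentiated replicate 1 (0.120). Mrpl4 did not pass after a second quantile normalization (0.118) or with a trended robust prior (0.105), and Zic2 did not after median centring (0.106). Esrrb and Stat3 passed as lower with array weights (0.0108 and 0.0052) and without both arrays numbered 1 (0.0347 and 0.0182), and Esrrb with the mean of all probe sets (0.0728).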
